A study of Homo sapiens
Mus musculus and Homo sapiens and Mus musculus with 7 samples.

Results

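The replication-dependent histone genes were taken as the 71 human protein-coding genes of GENCODE 29 whose symbols start with HIST1, HIST2, HIST3 or HIST4, together with the mouse gene Hist1h4c, which makes 72 of 113473 genes in the count tables and 71 of the 58721 human ones. The human genes comprised 6 genes for the linker histone H1, 17 for H2A, 18 for H2B, 15 for H3 and 15 for H4. The rule itself uses no count, but the genes were chosen with earlier results of these data known. The rule goes by symbol, so it also takes in HIST1H1T, the testis form of H1, which had a single count in all libraries.

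The study mixed 2 lines that carry a tagged ribosomal protein. HEK293, a human embryonic kidney line, expressed RPL22-HA, and NIH3T3, a mouse fibroblast line, expressed RPL22-V5, so that an antibody to either tag could pull down the ribosomes of one line with their RNA. The 7 libraries were 1 input of the co-culture, 1 HEK293 monoculture, 1 NIH3T3 monoculture, 2 HA immunoprecipitates (IPs), from lysates 1 and 5, and 2 V5 IPs, from lysates 1 and 4. The labels name no tag for the monocultures, and they do not say whether the lysates came from separate cultures, so p-values measure the spread between these IPs only, which may be technical.

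Histone mRNAs are the known exception among animal mRNAs in that they end in a conserved stem-loop instead of a poly(A) tail. The stem-loop is bound by SLBP, and the U7 snRNP guides the cut that forms the end just behind it. The mRNAs accumulate in S phase, when new DNA needs new nucleosomes, and are degraded when replication stops. Each class is encoded by many small genes in clusters, most of them without introns. An H4, H3, H2A or H2B gene encodes a protein of the nucleosome core, and an H1 gene encodes the linker histone that binds the DNA entering and leaving it.

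Of the 71 human genes, 55 lay on chromosome 6 within 2.17 Mb of hg38 (chr6:25726132-27893843), 15 on chromosome 1 and 1 on chromosome 12. A single exon block made up 58 of them. The annotation gave a 3′ untranslated region for 36 and none for the other 35. The stem-loop was searched on the transcript strand as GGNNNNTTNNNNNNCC with 6 paired stem bases on either side of 4 loop bases, within 100 bases after the stop codon. It was found in 30 of the 71 genes and in 4 of 18742 other protein-coding genes with at least 100 bases of 3′ untranslated region, or 0.0213%. None of the 30 was an H1 gene, and 6 genes with a 3′ untranslated region had no exact match. The search allowed only this pattern with full pairing, so how far the element varies was not tested. The 4 versions found are shown with 5 flanking bases to mark where they differ, and capitals mark the 16 bases of the stem-loop.
HIST3H2A: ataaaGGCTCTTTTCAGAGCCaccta
HIST1H2BC: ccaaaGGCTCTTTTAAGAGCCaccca
HIST1H4I: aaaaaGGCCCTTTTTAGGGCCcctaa
HIST1H4E: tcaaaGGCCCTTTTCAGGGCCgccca
The HIST3H2A version stood in 17 genes (6 H2A, 8 H2B and 3 H3), the HIST1H2BC version in 3 H2B and 2 H3 genes, the HIST1H4I version in 3 H4 genes and the HIST1H4E version in 5 H4 genes. Those of H4 genes thus differed from those of the other core histones in the stem. The 16-base stem-loop began at base 41 after the stop codon in HIST3H2A, 37 in HIST1H2BC, 34 in HIST1H4I and 45 in HIST1H4E. In 21 genes the annotated model ran over 100 bases past the stem-loop, and in 9 it ended sooner. Where the model stops decides which reads can be counted on a gene.

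Some histone genes of a class are near copies, and the count command in the file headers did not ask for reads that map to several places. The human H4 genes show how far genes of a class can be told apart. The first 60 coding bases of HIST1H4C (chr6:26103876-26104310, plus strand), HIST1H4E (chr6:26204552-26206038, plus strand) and HIST2H4A (chr1:149832659-149839767, plus strand) are shown, with capitals where a base differs from HIST1H4C.
HIST1H4C: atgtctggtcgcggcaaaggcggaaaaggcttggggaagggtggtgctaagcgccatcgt
HIST1H4E: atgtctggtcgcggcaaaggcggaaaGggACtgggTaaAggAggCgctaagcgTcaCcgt
HIST2H4A: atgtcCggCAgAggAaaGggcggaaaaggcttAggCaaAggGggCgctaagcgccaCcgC
HIST1H4E differed from HIST1H4C at 9 of these bases and HIST2H4A at 13. Over the 312 coding bases, identity to HIST1H4C was 80.8% for HIST1H4E and 79.5% for HIST2H4A. No 50-base window of the HIST1H4C transcript was found in a transcript of another gene. HIST2H4A, in contrast, had the same coding sequence as HIST2H4B, and 97.5% of its windows were found elsewhere. In all, 8 genes shared their whole coding sequence with another member, and these were the pairs HIST1H4J and HIST1H4K, HIST2H2AA3 and HIST2H2AA4, HIST2H3A and HIST2H3C, and HIST2H4A and HIST2H4B. Counts on such genes are uncertain.

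Counts per library were 826781 to 2063885. The V5 IPs had only 128915 and 81798 human counts, the input 280163, the HA IPs 729698 and 1213213 and the HEK293 monoculture 826673, so values of human genes are least precise in the V5 IPs. A gene with 0 counts in the second V5 IP could still be at 36.7 CPM (its counts per 1000000 human counts of the library), taking 3 counts as the limit. The HEK293 marker list (KRT8, KRT18, CDH2, LIN28B, PAX2 and EYA1) summed to 159 to 238 CPM in the input, the HEK293 monoculture and the HA IPs, and to 31.0 and 85.6 CPM in the V5 IPs. KRT18 gave most of the sum in the monoculture, at 195 CPM, and had 0 and 48.9 CPM in the V5 IPs. CDH2 went the other way, with 31.0 and 36.7 CPM in the V5 and 19.2 and 10.7 in the HA IPs. EYA1 had 0 CPM in every library with human cells. The list of 7 human fibroblast genes summed to at most 12.2 CPM. Mouse symbols were not paired with identifiers in the sources used here, so NIH3T3 was not checked against markers.

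Reads were found on 43 of the 71 human genes, and 28 had 0 counts in all 6 libraries with human cells. The genes without counts were 2 of 6 H1 genes, 5 of 17 H2A, 7 of 18 H2B, 9 of 15 H3 and 5 of 15 H4. A count was present in every one of the 6 libraries for 13 genes. In the NIH3T3 monoculture no human histone gene had a count, where 3 of 1999078 counts would be 1.5 CPM of all counts. Mouse Hist1h4c likewise had 0 counts in the HEK293 monoculture. The number of human histone genes with a count was 35 in the HEK293 monoculture, 28 in the input, 38 in each HA IP, and 25 and 17 in the V5 IPs, the libraries with the fewest human counts.

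More than 50% of the 50-base windows occurred in transcripts of other genes for 13 members. Of those 13, 8 were among the 28 genes without counts and 5 among the 43 with counts. Another 16 of the 28 genes without counts had no window in common with a gene elsewhere. Genes that overlap in position were not searched, but among the 16 only HIST1H3D had exonic bases under exons of other genes. Overlap can also take reads from a gene. HIST1H3D, one of the 16, and HIST1H2AK had 100% of their exonic bases under exons of other genes. The share was 99.5% for HIST2H3PS2 and 98.0% for HIST1H2AD, and all of these genes had 0 counts. The abundant HIST1H2BK (H2B) shared 74.1% of its windows with other genes and 61.4% with H2BFS alone, and HIST2H2AC (H2A) shared 30.5% with HIST2H2AA3 and with HIST2H2AA4. Their counts are uncertain for that reason.

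**Figure D1:**
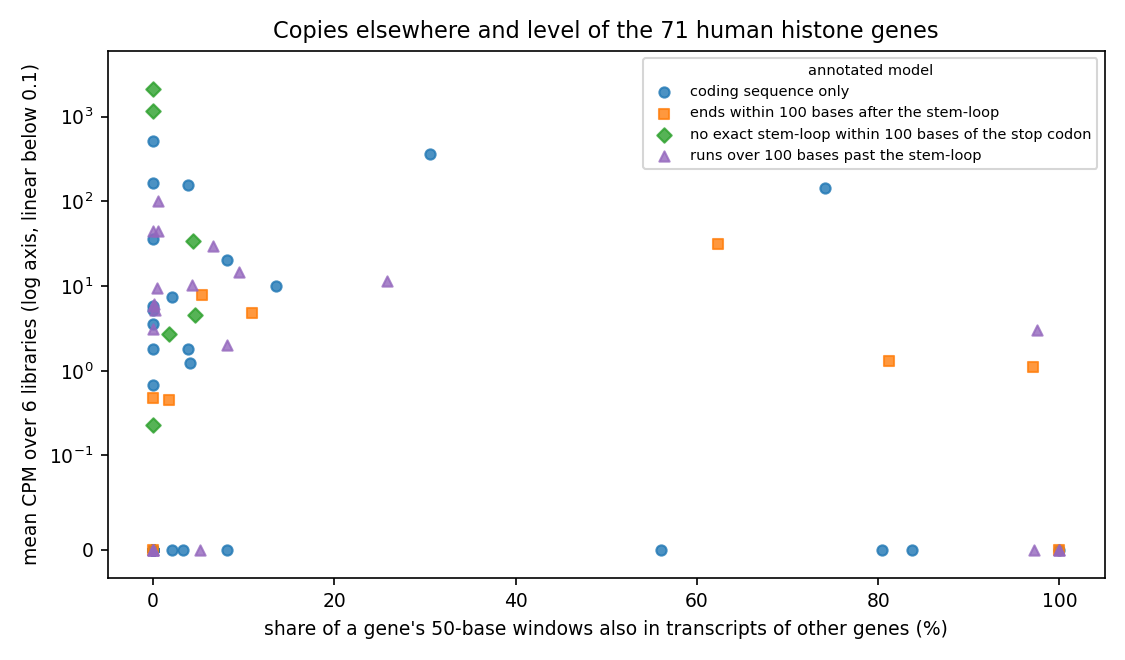
Share of each human histone gene's 50-base windows that also occur in transcripts of other genes (%) against its mean level over the 6 libraries with human cells (CPM, log axis, linear below 0.1), by kind of annotated model. Models labelled coding sequence only are those without an annotated 3′ untranslated region. The 28 genes at 0 include 16 with no window in common with a gene elsewhere (genes that overlap in position were not searched).

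Together the 71 genes took 0.660% of human counts in the HEK293 monoculture (exact Clopper-Pearson 95% interval 0.643 to 0.678) and 0.595% in the co-culture input (0.567 to 0.625). These intervals cover counting error only. The share was 0.420% and 0.551% in the HA and 0.448% and 0.366% in the V5 IPs, with means of 0.486% ± 0.0927 (SD, n = 2) and 0.407% ± 0.0586 (SD, n = 2). All 4 IPs lay below both unprecipitated libraries that held human RNA, while HA and V5 IPs overlapped. No p-value is given for the sum over the members. In bulk RNA, fewer cells in S phase and less histone mRNA per cell cannot be told apart. The shares may also depend on how far the SMART-seq cDNA captured mRNAs without a poly(A) tail, which was not tested. They need not measure the amount of histone mRNA.

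The classes did not make up the same part of this sum in every library. H4 genes held 69.4% of the histone counts in the HEK293 monoculture, against 37.1% in the input, 39.1% and 34.0% in the HA and 33.9% and 34.4% in the V5 IPs. H1 genes held 18.6% in the monoculture, against 43.4% in the input, 38.4% and 40.8% in the HA and 36.7% and 44.8% in the V5 IPs. The monoculture therefore stood apart from the other 5 libraries in both classes, with H4 high and H1 low. HIST1H4C alone held 68.6% of the histone counts there. HIST1H4I, the other tested H4 gene, was lowest in the monoculture, at 27.8 CPM against 46.4 in the input. H3 genes held between 0.421% and 3.34% and H2B genes between 1.80% and 7.69%, both lowest in the monoculture. Without HIST1H4C, the share of human counts was lowest in the HEK293 monoculture, at 0.207%, against 0.382% in the input and means of 0.317% in the HA and 0.275% in the V5 IPs.

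**Figure D2:**
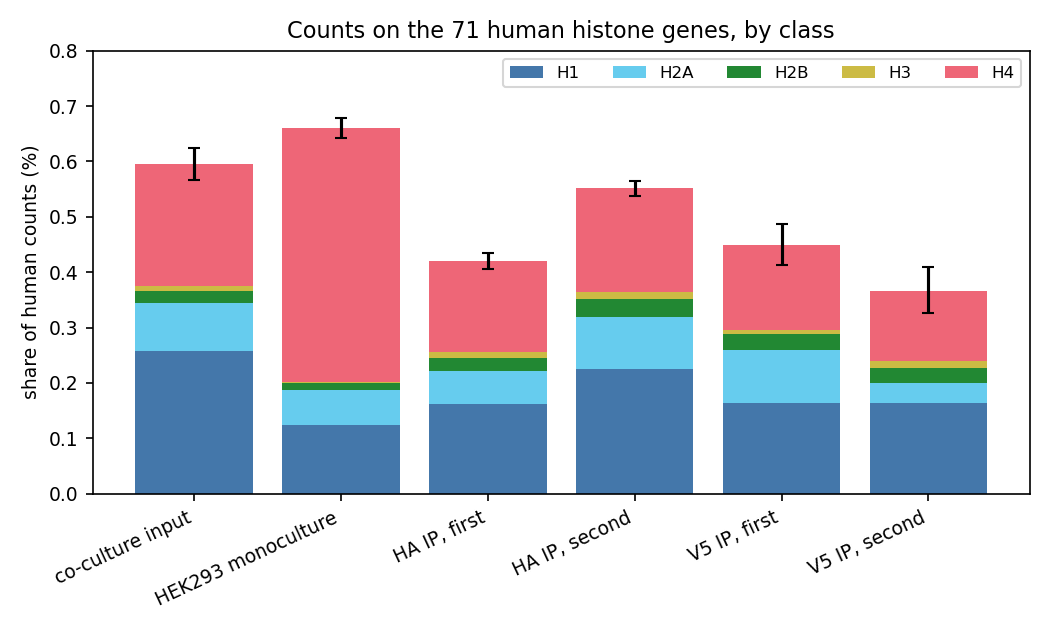
Share of human counts (%) on the 71 human histone genes in the 6 libraries with human cells, stacked by class, with exact 95% intervals of the total. The HEK293 monoculture has the tallest bar, 0.660%, and most of it is H4.

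Per length, HIST1H4C was the highest of all human histone genes, with a mean of 4855 CPM per kb of exonic length over the 6 libraries, followed by HIST1H1E with 1528, HIST2H2AC with 919.8 and HIST1H1C with 794.1. The most abundant H2B gene per length was HIST1H2BK with 372.4 CPM per kb, and the most abundant H3 gene was HIST1H3B with 88.4. The spread over libraries was wide for HIST1H4C, from 2698 CPM per kb in the second V5 IP to 10417 in the HEK293 monoculture. A mean of at least 50 CPM was reached by 8 human genes, all with a single exon block.

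HIST1H4C (also H4C3, ENSG00000197061.4, chr6:26103876-26104310, plus strand, 435 exonic bases) encodes the core histone H4. Its level was 4531 CPM in the HEK293 monoculture, 2138 in the input, 1571 and 1799 in the HA and 1458 and 1174 in the V5 IPs. The monoculture was the highest library and the IPs the lowest, with the input between them. HIST1H4C ranked 29 among human genes by counts in the monoculture, 72 in the input, 96 and 93 in the HA and 98 and 141 in the V5 IPs. The monoculture exceeded the input 2.12-fold (95% interval of the ratio 1.94 to 2.31, counting error only), with 1 library on each side and hence no replicate check. HIST1H4C alone held 68.6% of the histone counts in the monoculture and 32.1% to 37.4% elsewhere.

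Genes of the H1 class came next. HIST1H1E (H1-4, ENSG00000168298.6, chr6:26156354-26157107, plus strand) was at 665.3 CPM in the HEK293 monoculture, 1346 in the input, 1069 and 1476 in the HA and 1218 and 1137 in the V5 IPs. It was lowest in the monoculture, where HIST1H4C was highest. The input was above 3 of the 4 IPs. HIST1H1C (H1-2, ENSG00000187837.3, chr6:26055787-26056428, minus strand) was at 981.6 CPM in the input, 417.3 in the monoculture, 432 and 603 in the HA and 295 and 330.1 in the V5 IPs. The input was the highest library for this linker histone gene, and the HA IPs did not overlap the V5 IPs. HIST1H1D (H1-3, ENSG00000124575.6, chr6:26234268-26234933, minus strand) was at 257 CPM in the input, 148 in the monoculture, 114 and 172 in the HA and 132 and 171 in the V5 IPs. Its HA and V5 values overlapped almost fully. The 3 H1 genes were all higher in the input than in the HEK293 monoculture, by 2.02-fold, 2.35-fold and 1.74-fold in the order given. This was not particular to H1. HIST3H2A (2.14-fold), HIST1H2BK (1.55-fold) and HIST2H2AC (1.43-fold) were also higher in the input, and HIST1H4C and HIST1H2AH were lower.

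Among the H2A genes, HIST2H2AC (H2AC20, ENSG00000184260.5, chr1:149886975-149887364, plus strand) was at 460.4 CPM in the input, 323 in the monoculture, 245 and 504 in the HA and 473 and 147 in the V5 IPs. In both pairs, one IP was below and the other above the input and the monoculture. HIST1H2AH (H2AC12, ENSG00000274997.1, chr6:27147129-27147515, plus strand) was at 178 CPM in the input, 191 in the monoculture, 160 and 169 in the HA and 124 and 110.0 in the V5 IPs. This gene was the steadiest of the 8. HIST3H2A (H2AC25, ENSG00000181218.5, chr1:228456979-228457873, minus strand) was at 104 CPM in the input, 48.4 in the monoculture, 82.2 and 120 in the HA and 178 and 73.4 in the V5 IPs. It was the only one of the 8 whose annotated model held the stem-loop shown above, and ran 390 bases past it.

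HIST1H2BK (H2BC12, ENSG00000197903.7, chr6:27146418-27146798, minus strand), the H2B gene next to HIST1H2AH, was at 118 CPM in the input, 76.2 in the monoculture, 119 and 164 in the HA and 178 and 196 in the V5 IPs. The V5 IPs were above both HA IPs, the only such case among the 8 genes. No H3 gene reached 50 CPM. HIST1H3B (ENSG00000274267.1, chr6:26031650-26032060, minus strand) was at 25 CPM in the input, 15.7 in the monoculture, 48.0 and 49.5 in the HA and 31.0 and 48.9 in the V5 IPs. Across the 8 genes, the HEK293 monoculture was above both HA IPs for 2 and below both for 4, and V5 was above HA for 1 and below it for 3.

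**Figure D3:**
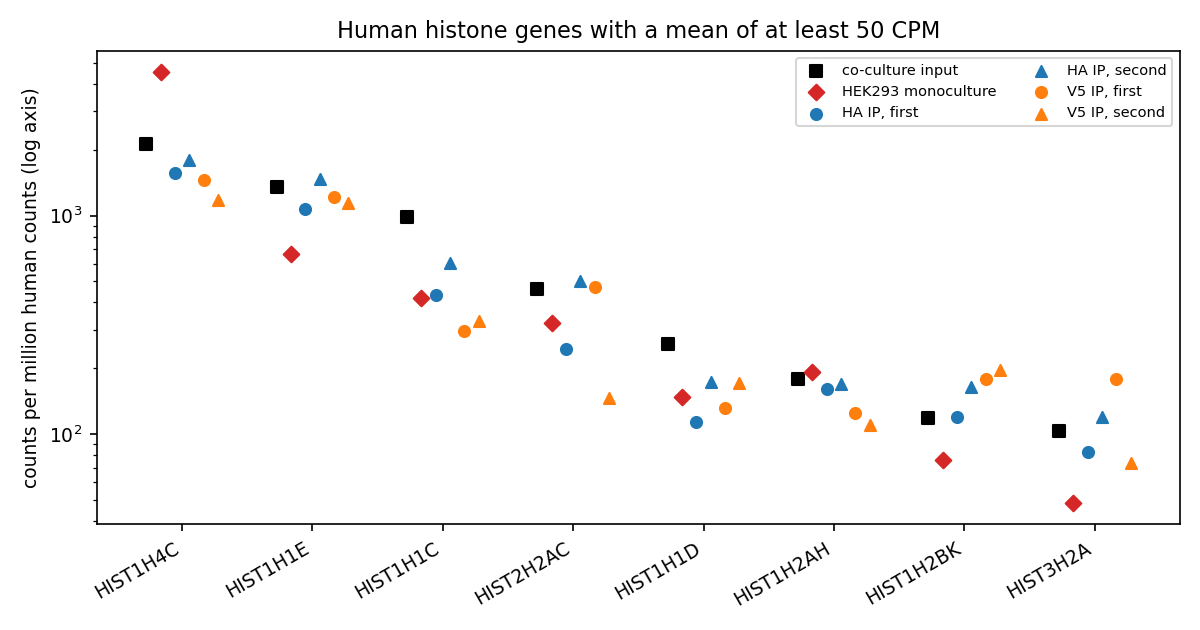
Level of the 8 human histone genes with a mean of at least 50 CPM (CPM of human counts, log axis) in each of the 6 libraries with human cells, one mark per library. HIST1H4C is highest in the HEK293 monoculture at 4531 CPM, and HIST1H1E is lowest there at 665.3.

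The comparison of HA IPs with the co-culture input asks which human mRNAs the pulled-down ribosomes held beyond the RNA of the mixed cells. The filter on low counts kept 21 of the 71 genes (3 H1, 7 H2A, 7 H2B, 2 H3 and 2 H4) and left out 50. None of the 21 passed at an edgeR adjusted p under 0.05, where 0.625% of all 6244 tested human genes did. At an unadjusted p under 0.05 the count was also 0, where 8.86% of all tested genes passed. DESeq2 gave an adjusted p to 8 of the 21 and called 0 of them, where it called 5.85% of the 1402 genes given one. HIST1H1C had the lowest fitted log2 difference, -1.07 (SE 0.57, edgeR adjusted p = 0.587), with both HA IPs below the input. HIST1H4C stood at -0.50 (SE 0.50) and HIST1H1E at -0.22 (SE 0.53). Of the 21, 7 had a positive and 14 a negative difference, with a median of -0.20, where 61.4% of all tested genes were positive and their median was 0.38. HIST1H2AC (H2A) and HIST1H2BD (H2B), counted among the 7, had 0 counts in the input. HIST1H2AC had 28.8 and 14.8 CPM in the HA IPs. Their mean was at least 2.04-fold higher than the input, counting error of the IPs left out, against the input's limit of 10.7 CPM, from 3 counts. HIST1H2BD was below that limit in both HA IPs, at 2.7 and 9.1 CPM, so its direction is not known. The median was -0.21 over 20 genes, with HIST1H2BD left out and HIST1H2AC at its bound. With the trend of counts on GC content removed, 13 were positive and the median was 0.24 against 0.15 for all genes. The median GC content was 54.4% for the 21 and 48.8% for all tested genes. Scaling also moved the median of all genes, to 0.17 with DESeq2's size factors and 0.57 with plain totals, and that of the members to -0.44 and -0.07.

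The comparison with the HEK293 monoculture sets HA IPs from the co-culture against unprecipitated RNA of HEK293 grown alone. Pull-down and co-culture change together here and cannot be told apart. edgeR called 0 of the 21 genes, where 0.368% of all tested genes passed. An unadjusted p under 0.05 was reached by 3 of the 21 and by 3.83% of all tested genes. DESeq2 gave an adjusted p to 3 of the 21 and called 1 of them, HIST1H4C, where it called 8.06% of the 434 genes given one. HIST1H4C had a fitted log2 difference of -1.41 (SE 0.48, edgeR adjusted p = 0.487), and both HA IPs were below the monoculture. Its adjusted p lay between 2.90e-06 and 0.832 over the alternatives and was under 0.05 in 6 of them, among them DESeq2 (log2 -1.50, adjusted p = 0.0180). Without the second HA IP, edgeR called HIST1H4C (log2 -1.73, adjusted p = 0.00158). The other 7 genes with at least 50 CPM had differences between -0.20 for HIST1H2AH and 1.10 for HIST3H2A, and none passed the test. Of the 21, 18 were positive, with a median of 0.82 against 0.01 for all tested genes, 50.6% of which were positive. Part of that count rests on genes with few reads. HIST2H2BF, an H2B gene, had 0 counts in the monoculture and 27.4 and 23.9 CPM in the HA IPs. The mean of the HA IPs was at least 7.07-fold higher, taking 3 counts per library as the limit and leaving out counting error of the IPs. With GC removed, 16 were positive and the median was 0.59 against 0.09.

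The comparison of HA with V5 IPs asks how the human RNA pulled down with the HEK293 tag differed from the human RNA that came along with the mouse tag. edgeR called 0 of the 21, where 0.368% of all tested genes passed. An unadjusted p under 0.05 was reached by 1 of the 21, a smaller share than the 11.2% of all tested genes. DESeq2 gave an adjusted p to 15 of the 21 and called 0 of them, where it called 0.673% of the 4307 genes given one. HIST1H1C had a log2 difference of 1.15 (SE 0.51, edgeR adjusted p = 0.378), with both HA IPs above both V5 IPs. HIST1H4C stood at 0.75 (SE 0.42, edgeR adjusted p = 0.495), also without overlap, and HIST1H2BK at 0.02 (SE 0.66). HIST1H2BK shows what the scale does. Its CPM was higher in both V5 IPs, but its fitted difference was slightly positive and turned to -0.33 with DESeq2's size factors. The median of the 21 was 0.68 against 0.37 for all tested genes, and 0.07 against -0.18 with GC removed. These comparisons share the HA IPs, so they are not independent of one another.

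**Figure D4:**
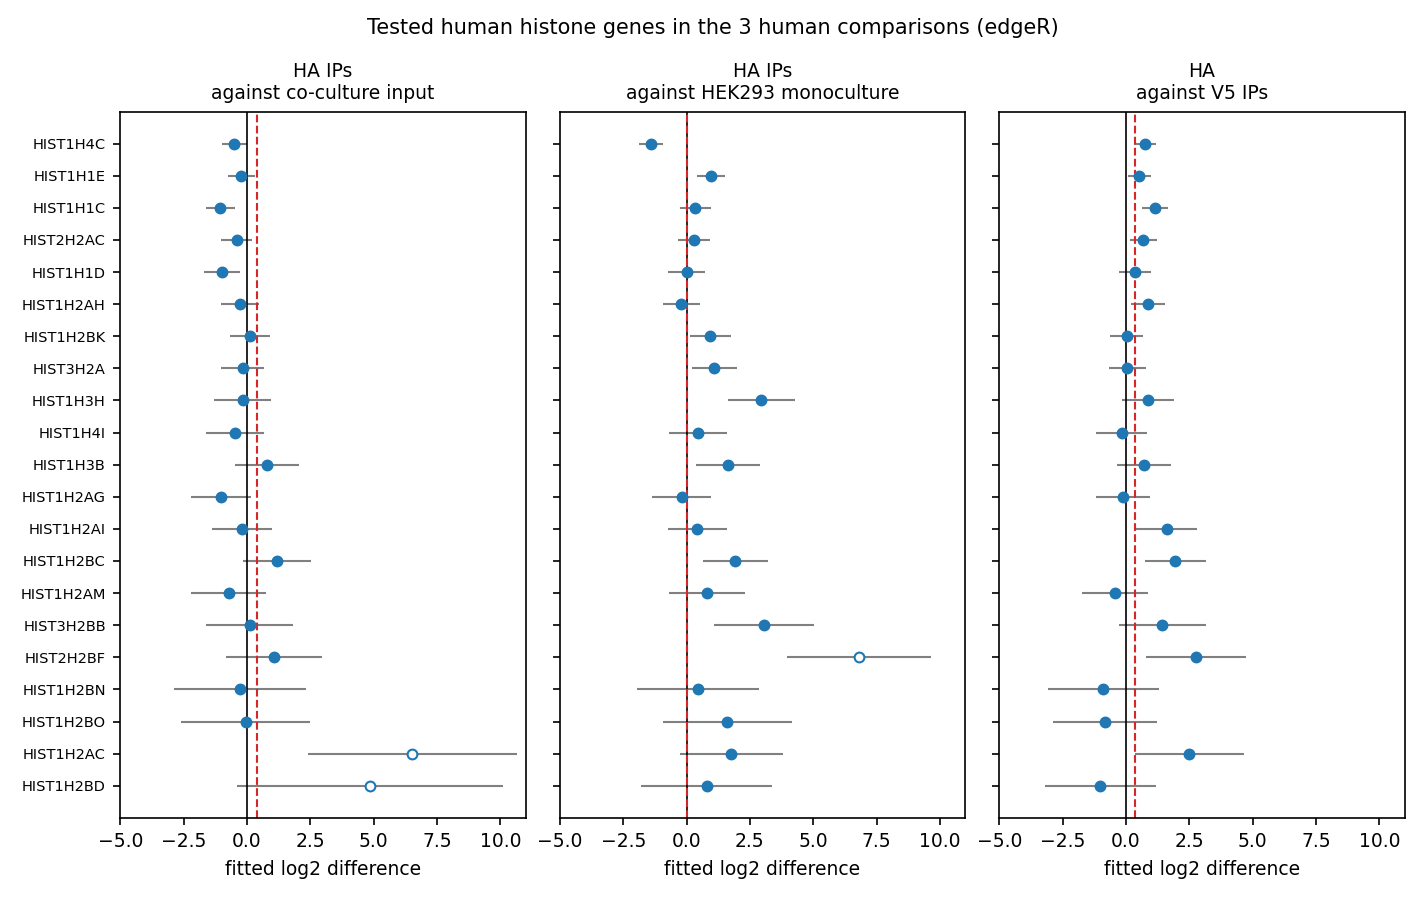
Fitted log2 difference (edgeR, bars are SE) of the 21 tested human histone genes, ordered by mean level, in the 3 human comparisons; the dashed line is the median of all tested human genes and open circles had 0 counts in the unprecipitated library. HIST1H4C is the lowest point against the HEK293 monoculture, at -1.41.

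Mouse Hist1h4c (ENSMUSG00000060678.5, chr13:23697635-23698454 in the deposited tables, minus strand, 820 exonic bases; the sources used here give no mouse build) encodes H4. It had 4 counts of 1998567 mouse counts in the NIH3T3 monoculture, or 2.0 CPM of mouse counts (exact Poisson 95% interval 0.545 to 5.12). The level was 57.9 CPM in the co-culture input (42.1 to 77.8), 125.6 and 86.6 CPM in the V5 IPs, and 50.5 and 74.2 CPM in the HA IPs. All 5 libraries of the co-culture were above the interval of the monoculture. V5 IPs exceeded the NIH3T3 monoculture by a fitted log2 difference of 5.60 (SE 0.92, edgeR adjusted p = 0.000959), and DESeq2 gave 5.67 (adjusted p = 4.77e-05). Hist1h4c was 1 of 2 mouse genes called higher among 8221 tested, or 0.0243%, while 0.377% were called in either direction. It was chosen with earlier results of these data known, so these p-values are not those of a gene picked blind. Without the first V5 IP the call was lost (log2 5.32, adjusted p = 0.207). The monoculture is a single library, so a difference between cultures and one of that library cannot be told apart.

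The input alone exceeded the monoculture 28.9-fold (95% interval 10.5 to 111, counting error only), and the input was made without a pull-down. V5 IPs against the input gave a log2 difference of 0.61 (SE 0.65, edgeR adjusted p = 0.887), where 0.815% of mouse genes were called. HA against V5 IPs gave -0.90 (SE 0.55, edgeR adjusted p = 0.651), where 0.268% were called. The other genes around Hist1h4c were looked at after its value was seen. Of 48 further mouse genes within 200 kb on either side, 19 were tested, and 18 of these were higher in both V5 IPs than in the NIH3T3 monoculture. Their fitted log2 differences ran from -1.75 to 4.08 with a median of 1.83, all below that of Hist1h4c, where the median of all tested mouse genes was 0.02 and 51.0% were positive. edgeR called 0 of the 19, and 7 had an unadjusted p under 0.05, where 6.13% of all tested mouse genes did. DESeq2 called 0 of the 12 to which it gave an adjusted p, where it called 0.655% of 5193 mouse genes. ENSMUSG00000060981.7 had 20 counts in the monoculture and 186 and 122 in the V5 IPs. The sources used here give no symbols for these genes, so which of them encode histones was not determined.

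**Figure D5:**
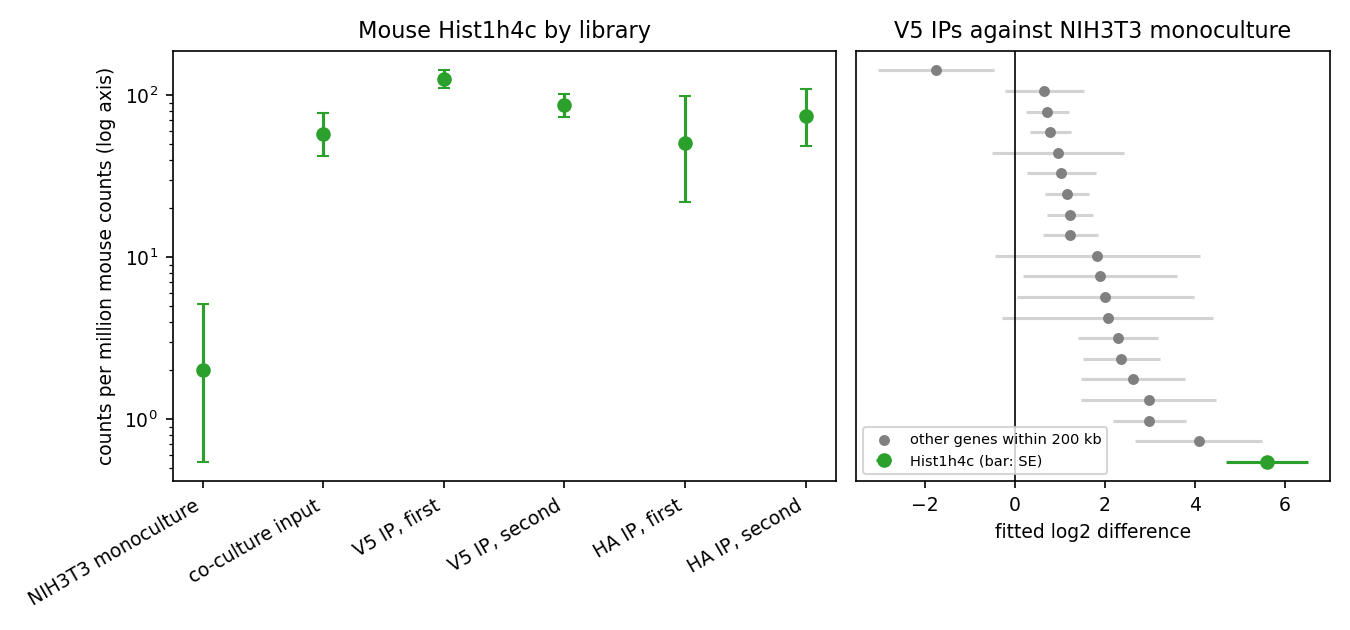
Left, Hist1h4c in the 6 libraries with mouse cells (CPM of mouse counts, log axis, exact Poisson 95% intervals); right, fitted log2 difference (bars are SE) between V5 IPs and the NIH3T3 monoculture for Hist1h4c and 19 other tested genes within 200 kb. Hist1h4c is at 2.0 CPM in the monoculture, and 18 of the 19 neighbours lie above 0.

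Most replacement histones are made throughout the cell cycle from mRNAs with poly(A) tails. Of the 12 listed, 8 were tested, and edgeR called 0 in each of the 3 human comparisons. Among all tested human genes it called 0.625% against the input and 0.368% in each of the others. Their CPM summed to 7941 in the HEK293 monoculture, 4169 in the input, 6633 and 6419 in the HA and 5345 and 4694 in the V5 IPs. In the monoculture and in every IP this sum exceeded that of the 71 replication-dependent genes, and in the input it was below it (5954 CPM). These sums are not scaled by exonic length, so their order holds for counts only. It does not tell which set of mRNAs was more abundant. H2AFZ, the variant H2A.Z, had a mean of 3925 CPM and H3F3B, one of the genes for H3.3, 1210. Their fitted differences between HA IPs and the input were 0.36 and 0.65 on the log2 scale, neither past the test, and that of H2AFZ was -0.054 with GC removed.

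Genes that act on histones or in S phase were read from lists. Of all tested human genes, edgeR called 0.625% against the input and 0.368% against the monoculture and against V5. The positive share of all tested genes was 61.4% against the input, 50.6% against the monoculture and 60.7% against V5. Of the 27 genes for histone mRNA 3′ processing and transcription, 20 were tested and 0 called by edgeR in any human comparison, with 11 positive against the input, 5 against the monoculture and 12 against V5. The most abundant were the Sm protein genes SNRPB, with a mean of 1288 CPM, and SNRPE, with 522. Of the 22 histone chaperone genes, 20 were tested and 0 called, with 17 positive against the input, 3 against the monoculture and 10 against V5. NPM1, a nucleolar chaperone, was at 1092 CPM in the input and 5002 in the monoculture, and NCL, nucleolin, at 335.5 and 1334. Of the 30 S phase genes, 25 were tested, and MCM5, a subunit of the replicative helicase, fell by 2.69 on the log2 scale from the input to the HA IPs (SE 0.61, edgeR adjusted p = 0.00306). MCM5 was at 395.6 CPM in the HEK293 monoculture, 746 in the input, 137 and 125 in the HA and 349 and 318 in the V5 IPs. Without the first HA IP the call was lost (log2 -2.62, adjusted p = 0.0687). No other listed S phase gene was called by edgeR in the 3 human comparisons.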

How the data were processed

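The deposited values are raw read counts for each gene. The authors counted, per the file headers, with featureCounts 1.5.2 in paired mode over exons grouped by gene, without strand (option 0), on a joint human and mouse annotation. STAR 2.5.2, Trim Galore, bcl2fastq, SAMtools and hg38 are named in the submitters' processing notes, and the labels' protocols give SMART-seq cDNA and Nextera DNA Flex libraries. Multi-mapping reads were not asked for in the command, so near copies can lose reads, and reads of overlapping genes are not separable. The 58721 human identifiers all matched GENCODE 29.

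CPM are counts per 1000000 counts of the gene's species. Tests used edgeR 4.0.16 (quasi-likelihood, two-sided) in R 4.3.3, with TMM factors over own-species counts, filterByExpr (minimum count 10, minimum total 15), Benjamini-Hochberg adjustment over all genes of the species and a threshold of 0.05. One fit held both pairs of IPs, the input and the monoculture, with 2 residual degrees of freedom. The single libraries were assumed to vary like the IPs. DESeq2 1.42.0, other scalings and filters, removal of the GC trend, IP order as a block, fewer groups and each IP left out were alternatives, and leaving out the input was added after seeing the data. The procedure was tested on simulated data. Named genes are human members with a mean of at least 50 CPM, the mouse gene, the highest per length of each class and, of the other lists, called genes or the 2 most abundant. Members and lists were chosen with earlier results of these data known. Sequences and 50-base windows (both strands, genes without positional overlap) come from the GENCODE 29 transcripts.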

Additional observations from a re-analysis of the deposited data

Results flagged for a closer look

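The H4 genes of the same name in the 2 lines lay on opposite sides of their own monoculture. Human HIST1H4C was lower in both HA IPs than in the HEK293 monoculture, with a log2 difference of -1.41, and mouse Hist1h4c was higher in both V5 IPs than in the NIH3T3 monoculture, with 5.60. The difference between the 2 effects was not tested. Each rests on 1 monoculture library.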

How the results depend on the processing

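The number of human members called stayed at 0 against the input and against V5 under every alternative run. Against the HEK293 monoculture it was 1 (HIST1H4C) under 6: DESeq2's size factors (log2 -1.50, adjusted p = 0.0281), plain totals (-1.43, 0.00157), a filter of 50 counts in 2 libraries (-1.60, 0.0301), DESeq2 (-1.50, 0.0180), the replicate block with GC removed (-1.54, 2.90e-06) and, with each IP left out, 0 to 1. Hist1h4c against NIH3T3 ranged from 5.32 to 5.83 with an IP left out, the call being lost without the first V5 IP (adjusted p = 0.207).

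The labels give the first HA and V5 IPs the same lysate number, 1, and the second ones different numbers, 5 and 4, so the block pairs by IP order and only 1 of the 2 pairs has a lysate number in common. Deviations within pairs correlated at 0.167 (human) and 0.316 (mouse). With the replicate block, 112 mouse genes were called in V5 against input and 56 in V5 against NIH3T3. The block alone changed no member's call. Added to GC removal, it moved the adjusted p of HIST1H4C against HEK293 from 0.311 to 2.90e-06.

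Of all genes, HA against input called 39, and 68 with DESeq2's size factors, 104 with totals, 82 with DESeq2, 23 with GC removed, 260 with only the groups compared and 29 to 140 with an IP left out. HA against HEK293 called 23, and 53 with totals, 35 with DESeq2, 55 with the replicate block and GC removed, 48 with only the groups compared and 26 to 63 with an IP left out. HA against V5 called 23, and 38 with totals, 37 with GC removed, 60 with the replicate block and GC removed and 18 to 117 with an IP left out. For mouse genes, V5 against input called 67, and 110 with DESeq2, 896 with only the groups compared and 1 to 867 with an IP left out. V5 against NIH3T3 called 31, and 65 with no filter, 11 with the stricter filter, 665 with only the groups compared and 4 to 648 with an IP left out. HA against V5 called 22, and 13 with the stricter filter, 12 with only the groups compared and 2 to 794 with an IP left out. The cause was not tested, apart from fewer samples or genes where the alternative left them out.

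The share of human counts on the members was 0.631% in the input and 0.721% in the HEK293 monoculture without mitochondrial genes in the total, and 0.382%, 0.207%, 0.317% (HA) and 0.275% (V5) without HIST1H4C.

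Of 362 values for named human genes, 294 kept sign and call and 61 changed sign, all uncalled; the cause was not tested. Against the input, H2AFZ turned to -0.054 with GC removed and -0.14 with the replicate block and GC removed; HIST1H1E to 0.29, 0.13 and, with an IP left out, -0.75 to 0.084; HIST2H2AC to 0.046, 0.014 and -1.32 to 0.079; HIST3H2A to 0.26, 0.34 and -0.75 to 0.16; and HIST1H2AH to 0.24 and 0.20. HIST1H2BK turned to -0.11 with size factors, -0.090 with the stricter filter, -0.12 with DESeq2, -0.18 with the replicate block, -0.022 with only the groups compared and -0.40 to 0.43 with an IP left out. MCM5 lost its call without the first HA IP (-2.62, adjusted p = 0.0687).

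Against HEK293, HIST1H1C turned to -0.073 with the replicate block and GC removed and -0.15 to 0.68 with an IP left out, and HIST2H2AC to -0.24 with GC removed, -0.27 with both and -0.59 to 0.79 with an IP left out. HIST1H1D turned to -0.10 with size factors, -0.042 with totals, -0.12 with no filter, -0.21 with the stricter filter, -0.42 with the replicate block, -0.12 with GC removed, -0.52 with both and -0.57 to 0.37 with an IP left out.

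Against V5, HIST1H1D turned to -0.068 with totals, -0.24 with the stricter filter, -0.0014 with DESeq2, -0.20 with GC removed, -0.26 with GC and the replicate block and -0.26 to 0.69 with an IP left out. HIST1H1E turned to -0.066 with the stricter filter, -0.032 with GC removed and -0.059 with GC and the replicate block, and HIST2H2AC to -0.23 at the low end of a range up to 1.82 with an IP left out. HIST1H2BK turned to -0.33 with size factors, -0.39 with totals, -0.57 with the stricter filter, -0.33 with DESeq2, -0.049 with the replicate block, -0.56 with GC removed, -0.59 with both, -0.29 with only the groups compared and -0.50 to 0.31 with an IP left out. HIST3H2A turned to -0.30 with size factors, -0.35 with totals, -0.53 with the stricter filter, -0.29 with DESeq2, -0.47 with GC removed, -0.43 with both, -0.25 with only the groups compared and -0.50 to 0.90 with an IP left out. Depth limits human values most in the V5 IPs.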
